A study of Bos taurus with 24 samples.

Results

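Adrenal glands taken at birth (day 0) from 12 female calves were compared by bulk RNA sequencing: 6 calves labelled in utero heat stressed (IUHS) and 6 labelled in utero cooled (IUCL). They were chosen by the label for the time of sampling, and they make up 12 of the 24 libraries of the study, the other 12 coming from calves of the same treatments at weaning (day 63). The comparison asks whether the gland differed between the treatments at the end of the exposure. Cooling before birth was itself a treatment, and calves exposed to neither were not analysed here. How the dams were heated or cooled is not given in the sources used here.

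The adrenal gland has an outer cortex, which makes glucocorticoids, mineralocorticoids and androgens from cholesterol, and an inner medulla, whose chromaffin cells release catecholamines. Around birth the cortex responds to pituitary corticotropin, and its cortisol takes part in the maturation of the lung, liver and gut. In cattle, heat in late gestation is studied as an exposure of the fetus that can shape growth and stress responses later in life. The count tables give genes by Ensembl ID and pair no ID with a name, so genes are reported by ID. For the same reason the tissue could not be checked against markers of cortex or medulla.

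The 12 libraries held between 13607084 and 19012206 counts, and between 17523 and 18983 of the 27570 deposited IDs had at least 1 count in a library. Each of the 66 pairs of libraries differed by more than sampling noise, with a chi-square of at least 21.2 per degree of freedom. None of 9 library measures (total counts, IDs detected, shares of the most abundant IDs, scaling factor, correlation with the own group and 3 principal components) separated the treatments. The smallest exact permutation p was 0.128 (two-sided), and the smallest adjusted p over the 9 measures was 0.568. Correlation with the own group was computed from the true labels and not anew for each split. Its permutation p of 0.165 is therefore not exact, and it entered the adjustment. Over the 10364 IDs with a mean of at least 10 CPM (counts scaled to a common library size), 3 libraries stood farthest from the median profile of their own group. The median absolute distance from the group median was 0.209 on the log2 scale in IUCL calf 3, 0.226 in IUHS calf 4 and 0.222 in IUHS calf 5. The other 9 calves lay between 0.0912 (IUHS calf 8) and 0.196 (IUHS calf 2), so each treatment held both close and distant calves. The counts past a p threshold, the intervals, the signs and the ratios of spread are given with and without those 3 libraries.

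**Figure D1:**
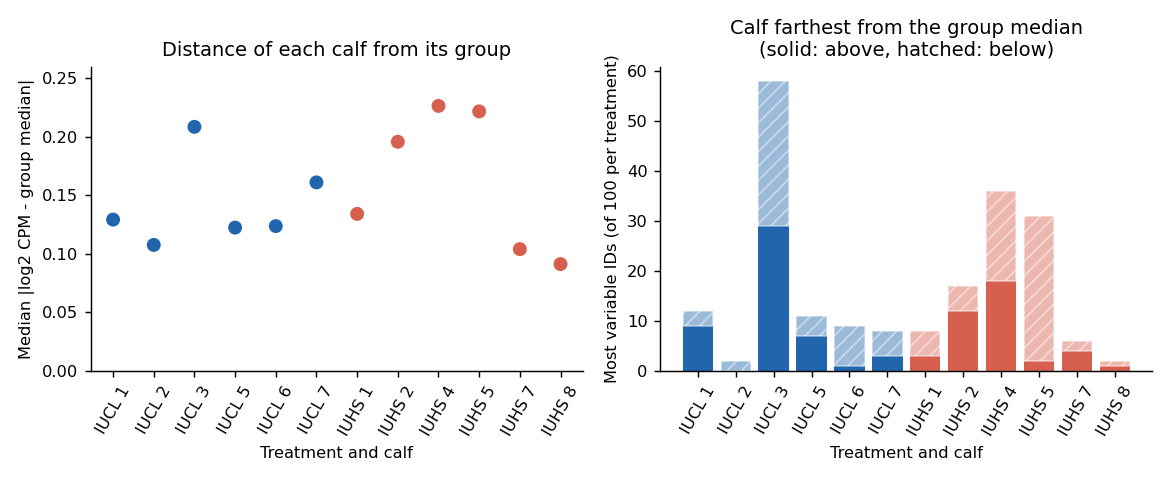
Left: median absolute difference in log2 CPM between each calf and the median of its own group (y axis) for the 6 IUCL (blue) and 6 IUHS (red) calves at birth. Right: number of the 100 most variable IDs of each treatment for which that calf lay farthest from its group median, above it (solid) or below it (hatched); IUCL calf 3 held 58, IUHS calf 4 held 36 and IUHS calf 5 held 31.

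No ID passed the threshold between heat-stressed and cooled calves at birth. Of 15693 IDs tested, 0 (0%) reached an adjusted p under 0.05 in edgeR's quasi-likelihood test, and 0 did so in DESeq2 and in limma-voom. At an unadjusted p under 0.05 edgeR gave 617 IDs (3.93%), 380 higher (2.42%) and 237 lower (1.51%) in heat-stressed calves, DESeq2 gave 723 and limma-voom 626. A uniform distribution of p would give 785. Without IUCL calf 3 and IUHS calves 4 and 5, edgeR gave 0 IDs past the adjusted threshold and 387 at the unadjusted one. The smallest adjusted p was 0.0708 in DESeq2, for ENSBTAG00000037949, and 0.998 in limma-voom.

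How small a difference these calves could bound depended on abundance. Tested IDs were placed in 5 classes by their mean CPM over the 12 birth libraries. The class of under 1 CPM held 1212 IDs, that of 1 to 10 CPM 4117, that of 10 to 100 CPM 8097, that of 100 to 1000 CPM 2204 and that of 1000 CPM and over 63. These 63 IDs took 15.9% of the scaled counts, and the class of 100 to 1000 CPM took 50.4%. The 11877 IDs that were not tested, 5513 of them at 0 counts in all 12 birth libraries, took 0.0728% of the counts.

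Typical differences between the treatments were small in every class and lay inside the interval that the calves allowed. The median absolute log2 difference was 0.40 under 1 CPM, 0.23 at 1 to 10 CPM, 0.10 at 10 to 100 CPM, 0.08 at 100 to 1000 CPM and 0.08 at 1000 CPM and over. The median standard error (SE) of the log2 difference was 0.60, 0.34, 0.16, 0.13 and 0.17 in the same order. The 95% interval of a typical ID reached 2.35-fold to either side of its estimate under 1 CPM, 1.63-fold at 1 to 10 CPM, 1.26-fold at 10 to 100 CPM and 1.21-fold at 100 to 1000 CPM. At 1000 CPM and over it reached 1.27-fold, so precision was not best among the most abundant transcripts.

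**Figure D2:**
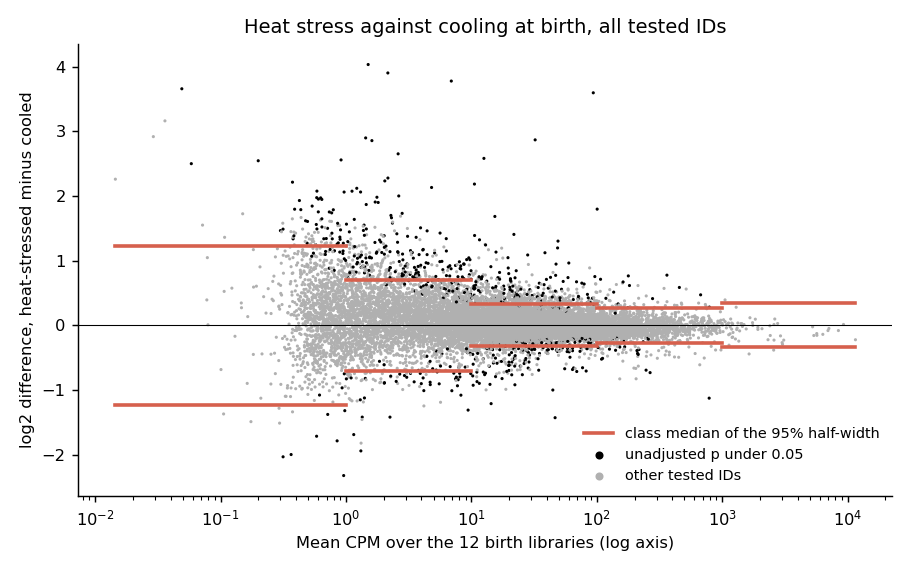
Each point is 1 of the 15693 tested IDs, with its mean CPM over the 12 birth libraries (x axis, log scale) and its log2 difference, heat-stressed minus cooled (y axis). Black points have an unadjusted p under 0.05, and the red lines mark the class median of the 95% half-width, from 1.23 under 1 CPM to 0.27 at 100 to 1000 CPM.

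A change of 2-fold or more in either direction lay outside the 95% interval of the treatment difference for 12003 of the 15693 IDs (76.5%), and a change of 1.5-fold or more for 8394 (53.5%). At 2-fold the share was 4.21% of IDs under 1 CPM, 53.9% at 1 to 10 CPM, 93.2% at 10 to 100 CPM, 96.7% at 100 to 1000 CPM and 90.5% at 1000 CPM and over. At 1.5-fold it was 0%, 12.6%, 73.4%, 85.6% and 73.0%. Close to the class limits, an interval within 2-fold was found for 6.90% of IDs just below and 14.2% just above 1 CPM, and for 81.1% just below and 85.0% just above 10 CPM. The shares were 97.6% and 97.7% around 100 CPM, and 97.4% of 39 IDs and 90.5% of 21 IDs around 1000 CPM. Without IUCL calf 3 and IUHS calves 4 and 5, 11636 IDs in all had an interval within 2-fold and 7724 within 1.5-fold. Intervals that reached past 4-fold were left for 597 IDs, 354 of them under 1 CPM, 207 at 1 to 10 CPM and 36 above that. These intervals are for single IDs and are not adjusted for the number of IDs.

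The typical ID of each class, taken as the one with the median SE, shows what these numbers rest on. ENSBTAG00000011273, under 1 CPM, was counted 9 to 26 times in cooled calves and 4 to 33 times in heat-stressed calves. With a mean of 0.996 CPM it lay at the upper limit of its class, where the median count was 9 per library. The log2 difference of this ID was -0.11 ± 0.60 (SE), with a 95% interval from -1.34 to 1.12. ENSBTAG00000014484, at 1 to 10 CPM, measured 3.73, 4.68 and 7.44 CPM (lowest, median and highest) in cooled calves, and 2.04, 4.34 and 7.33 CPM in the heat-stressed calves. The ranges overlapped, with heat-stressed calves 2 and 4 below every cooled calf, and the interval of its log2 difference ran from -0.94 to 0.46.

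ENSBTAG00000014153, at 10 to 100 CPM, measured 18.7, 24.6 and 28.1 CPM in cooled calves, and 18.996, 24.4 and 28.3 CPM in the heat-stressed calves, with an interval from -0.32 to 0.34. ENSBTAG00000000810, at 100 to 1000 CPM, measured 159, 184 and 201 CPM in cooled calves, and 133, 166 and 217 CPM in the heat-stressed calves, with an interval from -0.38 to 0.17. ENSBTAG00000018320, at 1000 CPM and over, measured 1438, 1603 and 1769 CPM in cooled calves, and 1227, 1650 and 2596 CPM in the heat-stressed calves, with an interval from -0.22 to 0.46. In both of these abundant IDs the lowest and the highest of the 12 calves were heat-stressed calves. The most tightly bounded ID was ENSBTAG00000048519, at 146 ± 4.36 CPM in cooled calves and 136 ± 9.02 CPM in the heat-stressed calves (SD, n = 6 each). Its interval ran from -0.25 to 0.04, which leaves a fall of at most 1.19-fold.

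The sign of the difference also varied with abundance. The estimate was higher in heat-stressed calves for 63.0% of IDs under 1 CPM, 62.9% at 1 to 10 CPM, 48.1% at 10 to 100 CPM, 35.8% at 100 to 1000 CPM and 36.5% at 1000 CPM and over. Upper-quartile scaling gave 52.1% at 10 to 100 CPM and moved no other class across 50%. Without IUHS calf 5 the shares were 56.4%, 54.9%, 45.2%, 44.2% and 52.4% in the same order. Without IUHS calf 4 the share at 1000 CPM and over was 15.9%, and without IUCL calf 3 the share at 10 to 100 CPM was 50.9%. Without these 3 calves together the shares were 57.4%, 55.6%, 46.7%, 44.1% and 39.7%, so the size of the pattern depended on single calves. In IUHS calf 5, IDs of 1 to 10 CPM took 2.36% of the scaled counts, against 1.66% to 2.01% in the other heat-stressed and 1.55% to 1.93% in the cooled calves. It also had the most IDs detected, 18983, and the largest scaling factor of the 12 libraries, 1.09.

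**Figure D3:**
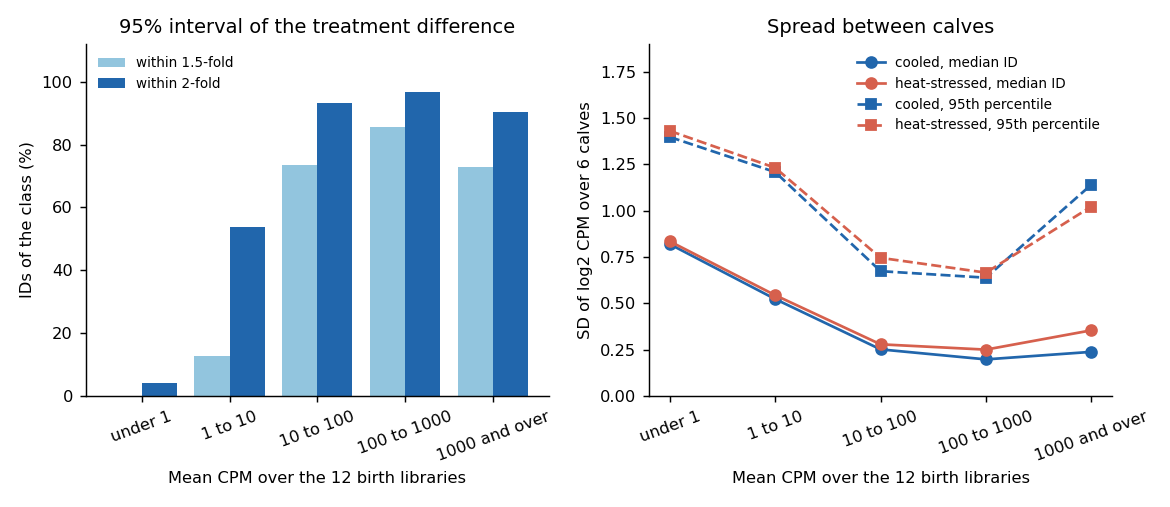
Left: percent of the IDs of each abundance class (x axis, mean CPM) whose 95% interval of the treatment difference lay within 1.5-fold (light) or 2-fold (dark), from 4.21% to 96.7% at 2-fold. Right: SD of log2 CPM over the 6 calves of each treatment, for the median ID (solid) and the 95th percentile of IDs (dashed) of each class; both treatments were lowest at 100 to 1000 CPM in both lines.

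The 2 IDs named in each direction for the smallest p, among IDs with a mean of at least 1 CPM and no single library holding over 50% of it, overlapped between treatments. ENSBTAG00000037949 had the smallest p among those IDs higher in heat-stressed calves and also the largest difference among IDs of at least 10 CPM. It measured 10.8, 11.8 and 25.1 CPM (lowest, median and highest) in cooled calves, and 3.49, 30.7 and 531 CPM in the heat-stressed calves. Calves 1, 2 and 4 of the heat-stressed group lay above all cooled calves, and calves 5, 7 and 8 lay below all of them. At weaning no calf of either treatment exceeded 6.82 CPM. The estimate was 3.59 ± 0.86 (log2, SE) in edgeR, 1.37 in limma-voom and 0.94 with sample quality weights.

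ENSBTAG00000004574 was next among the higher IDs, at 0.760, 2.10 and 3.41 CPM in cooled calves, and 3.19, 5.07 and 9.29 CPM in the heat-stressed calves (log2 difference 1.51 ± 0.37, edgeR unadjusted p = 0.000392). The ranges overlapped by 1 cooled calf, calf 2. At weaning its difference was -0.15 ± 0.35, with medians of 7.92 CPM (cooled) and 8.16 CPM (heat-stressed).

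Among the lower IDs, ENSBTAG00000000764 measured 33.8, 47.5 and 59.6 CPM in cooled calves, and 27.7, 33.4 and 43.9 CPM in the heat-stressed calves (log2 difference -0.43 ± 0.12, edgeR unadjusted p = 0.00148). ENSBTAG00000016527 measured 25.3, 32.1 and 40.6 CPM in cooled calves, and 22.2, 24.7 and 26.6 CPM in the heat-stressed calves (log2 difference -0.42 ± 0.13, edgeR unadjusted p = 0.00281). In this ID 3 cooled calves (3, 5 and 7) lay at 36.03 CPM or more, while the other 3 lay between 25.3 and 28.2 CPM, close to the heat-stressed calves. The estimates for both IDs were positive at weaning, at 0.15 ± 0.12 and 0.35 ± 0.13. The largest fall among IDs of at least 10 CPM, in ENSBTAG00000007554, came from cooled calves 1 and 5, at 115 and 174 CPM. The other 4 cooled calves measured 12.7 to 49.5 CPM, and the heat-stressed calves 19.9 to 33.8 CPM. Its estimate was -1.43 ± 0.47 in edgeR, -0.89 without cooled calf 5 and -0.88 in limma-voom, and at weaning it was 0.00 ± 0.46 in edgeR.

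**Figure D4:**
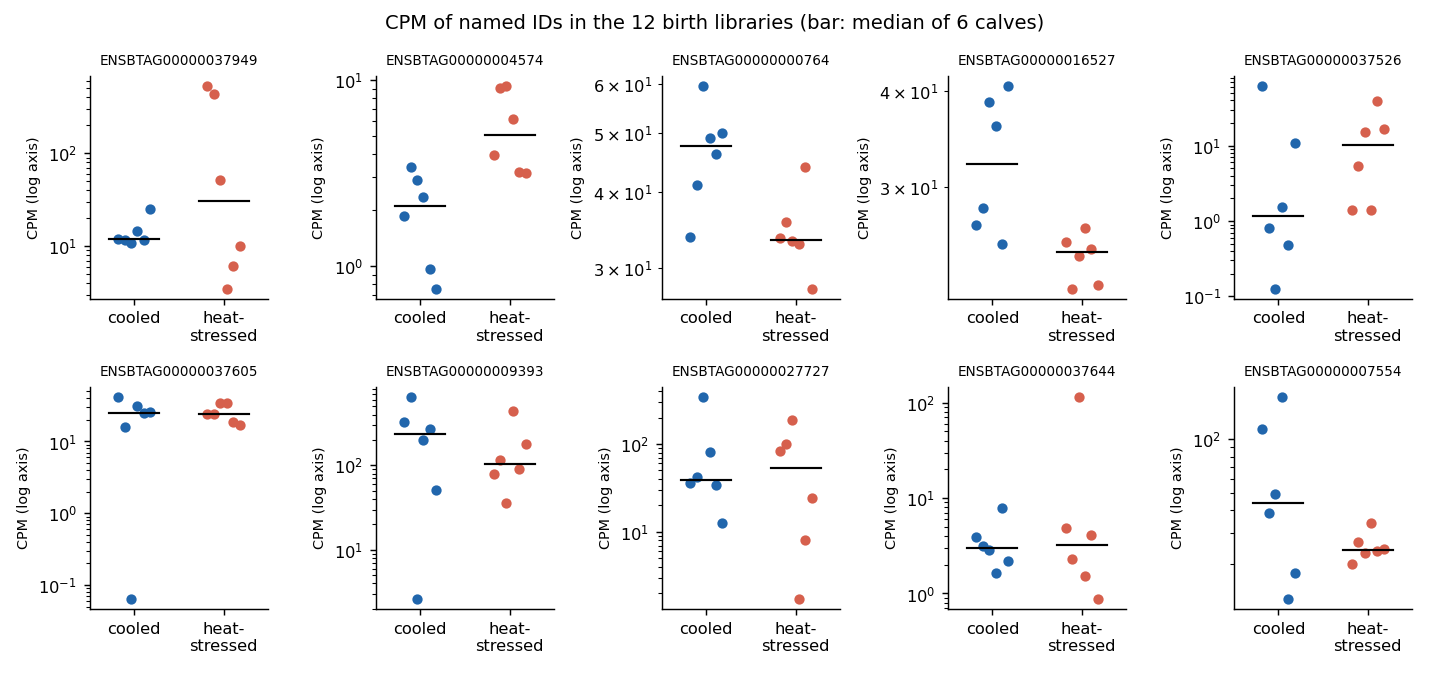
CPM (y axis, log scale) of 10 IDs in the 6 cooled (blue) and 6 heat-stressed (red) calves at birth, with bars at the group medians. The first 4 panels and the last hold IDs named for a treatment difference, the other 5 and the first hold IDs named for their spread; in each panel the treatments overlapped.

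Complete separation of the treatments was rare. The CPM ranges did not overlap for 7 of the 15693 IDs (0.0446%), 3 higher (0.0191%) and 4 lower (0.0255%) in heat-stressed calves, and these 7 were named after their values were seen. The higher ones were ENSBTAG00000048427, ENSBTAG00000033319 and ENSBTAG00000051542. ENSBTAG00000048427 had the widest gap as a ratio, 1.35-fold, with the lowest heat-stressed calf at 0.579 CPM and the highest cooled calf at 0.428 CPM. Its edgeR unadjusted p was 0.00143, and that of ENSBTAG00000033319 was 0.00176. In ENSBTAG00000033319 the lowest heat-stressed and the highest cooled calf were at 2.72 and 2.71 CPM, and in ENSBTAG00000051542 6.83 and 6.42 CPM.

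The lower ones were ENSBTAG00000038979, ENSBTAG00000006547, ENSBTAG00000040058 and ENSBTAG00000003766. ENSBTAG00000038979, the most abundant of the 7, measured 58.7 to 67.4 CPM in cooled and 48.5 to 57.0 CPM in heat-stressed calves (log2 difference -0.25 ± 0.09). In ENSBTAG00000003766 the highest heat-stressed calf, at 17.72 CPM, nearly met the lowest cooled calf, at 17.77 CPM. At weaning the CPM ranges of the treatments overlapped in all 7 IDs, and 2 of the 7 estimates kept their sign. No ID was at 0 in all calves of one treatment and present in all calves of the other. Of the 27570 deposited IDs, 10 had at least 1 count in 5 heat-stressed calves and 0 in all 6 cooled calves. The reverse held for 1 ID, and each of these IDs had at most 8 counts in any library. The mean number of IDs detected per library was 18450 in heat-stressed and 18209 in cooled calves (exact permutation p = 0.413, two-sided).

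The weaning calves are other animals and entered no mean at birth, although the model shared 1 estimate of the spread between the ages. Of the 617 IDs at an unadjusted p under 0.05 at birth, 283 (45.9%) had an estimate of the same sign at weaning, against 50.4% of all tested IDs. Their median absolute log2 difference was 0.70 at birth, which the choice of IDs by p raises, and 0.18 at weaning, where it was 0.15 over all tested IDs. At weaning 39 of the 617 (6.32%) had an unadjusted p under 0.05, near the 6.99% of all tested IDs. Of those 39, 14 had the same sign at both ages (35.9%), against 44.6% of the 1097 IDs with such a p at weaning.

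The spread between calves of one treatment also depended on abundance. The median SD of log2 CPM over 6 calves was 0.82 in cooled and 0.84 in heat-stressed calves under 1 CPM, and 0.52 and 0.54 at 1 to 10 CPM. It was 0.25 and 0.28 at 10 to 100 CPM, 0.20 and 0.25 at 100 to 1000 CPM, and 0.24 and 0.36 at 1000 CPM and over. Counting error alone gives about 0.48 at the median count of 9 per library under 1 CPM. At 100 to 1000 CPM, where the median count was 2558, it gives 0.03, so counting error made up little of the spread in abundant IDs. Fewer cells of a type and less RNA per cell cannot be told apart in bulk tissue.

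The spread was not shown to differ between treatments. The SD was larger in heat-stressed calves for 8821 IDs (56.2%), and for 50 of the 63 IDs of 1000 CPM and over. The median log2 ratio of the SDs, heat-stressed to cooled, was 0.12 over all IDs (exact permutation p = 0.591, two-sided). By class it rose from 0.01 under 1 CPM and 0.03 at 1 to 10 CPM to 0.14 at 10 to 100 CPM, 0.22 at 100 to 1000 CPM and 0.69 at 1000 CPM and over. The smallest exact permutation p, in the last class, was 0.175, or 0.877 after adjustment over the 5 classes. Without IUCL calf 3 and IUHS calves 4 and 5 that ratio was 0.04, and the one over all IDs was -0.04. These libraries were chosen for lying far from their own group, and more of them were heat-stressed than cooled. The fall of the ratio without them was therefore partly set by the choice.

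Most of the IDs that varied strongly in 1 treatment were also variable in the other. Among the 10364 IDs of at least 10 CPM, the 100 with the largest SD in cooled calves and the 100 with the largest SD in heat-stressed calves shared 45, or 45% of each list. Their SDs ran from 2.94 down to 1.08 in cooled and from 3.13 down to 1.07 in heat-stressed calves. Of the 100 IDs chosen in cooled calves, 87 were among the most variable 10% in heat-stressed calves, and 83 were so in cooled calves at weaning. Of the 100 chosen in heat-stressed calves, 85 were among the most variable 10% in cooled calves at birth, and 69 in heat-stressed calves at weaning. IUCL calf 3 was the calf farthest from its group median for 58 of the 100 IDs in cooled calves, above the median for 29 and below it for 29. In heat-stressed calves IUHS calf 4 was farthest for 36 IDs and IUHS calf 5 for 31, and calf 5 lay below the median in 29 of those. Over all 10364 IDs, with distance taken from the group mean, these calves were farthest for 31.1% (IUCL calf 3), 26.7% (IUHS calf 4) and 28.7% (IUHS calf 5). The counts in the lists used the group median, so list and overall shares rest on different measures. For IUHS calf 5 they were close, at 31 of 100 and 28.7%. Between treatments 7 IDs of the first list and 8 of the second had an unadjusted p under 0.05, where 315 of the 10364 IDs (3.04%) did; the spread that chose the lists enters the same test.

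In cooled calves the 3 most variable IDs were ENSBTAG00000037526, ENSBTAG00000037605 and ENSBTAG00000009393, named here for their spread and not tested on it. ENSBTAG00000037526 measured 62.2 CPM in calf 1 and 11.01 CPM in calf 7, and 0.127 to 1.54 CPM in the other 4. Heat-stressed calves measured 1.39 to 38.9 CPM. ENSBTAG00000037605 had 1 count in cooled calf 3, or 0.0634 CPM, while the other 11 calves measured 15.8 to 42.0 CPM. The weaning calves measured 45.3 to 291 CPM, so the near absence was found in 1 of the 24 libraries. ENSBTAG00000009393 measured 2.60 CPM in the same cooled calf 3 and 51.0 to 651 CPM in the other cooled calves. Heat-stressed calves measured 36.3, 104 and 445 CPM (lowest, median and highest).

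In heat-stressed calves the 3 most variable IDs were ENSBTAG00000037949, described above, ENSBTAG00000027727 and ENSBTAG00000037644. ENSBTAG00000037644 measured 116 CPM in calf 4, against 0.869 to 4.82 CPM in the other heat-stressed calves and 1.65 to 7.92 CPM in cooled calves. Its log2 difference between treatments was 2.58 ± 0.88, while the group medians were 2.999 CPM in cooled calves, and 3.20 CPM in the heat-stressed calves. ENSBTAG00000027727 was spread over a wide range in both treatments, at 12.7, 38.9 and 345 CPM in cooled calves, and 1.72, 53.8 and 189 CPM in the heat-stressed calves.

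ENSBTAG00000027727 varied together with many other IDs. Over the 12 birth calves, 114 of the other 10363 IDs of at least 10 CPM had a Pearson's r above 0.9 with it in log2 CPM, and 12 had an r below -0.9. The IDs most like it were ENSBTAG00000032026 (r = 0.986) and ENSBTAG00000004075 (r = 0.975). Of the other 5 IDs named for their spread, ENSBTAG00000009393 had 12 such partners and the rest had 0 to 3. These correlations share libraries and scaling, and the group of 115 IDs was chosen after the values were seen. Of the 115, 3 were among the 100 most variable IDs in cooled calves and 10 among those in heat-stressed calves.

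The level of the 115 IDs, as their mean log2 CPM relative to the birth mean, was 0.73 in IUCL calf 3, 0.54 in IUHS calf 4 and 0.32 in IUHS calf 1. It was lowest in IUHS calf 5, at -0.94, followed by IUHS calf 7, at -0.44, and IUCL calf 7, at -0.43. Together these IDs took 42565 CPM in IUCL calf 3 and 10972 CPM in IUHS calf 5. High and low calves were thus found in both treatments, and the mean level was 0.08 over the cooled and -0.08 over the heat-stressed calves, with SDs of 0.38 and 0.54. The scaling factor ran opposite to the level in the extreme calves, at 0.933 in IUCL calf 3, 0.9499 in IUHS calf 4 and 1.09 in IUHS calf 5. Not every calf followed this order, as IUHS calf 2 had a level of 0.18 and a factor of 1.03. The part of the scaling in this pattern was not tested.

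The weaning libraries were not used to choose these IDs. Over the 12 weaning calves the median pairwise r among the 115 was 0.46, with 88.7% of pairs above 0. Among every 10th ID of the same pool it was 0.00, with 50.3% of pairs above 0. Within treatments at weaning the median r of the 115 was 0.34 in cooled and 0.67 in heat-stressed calves. The level itself varied less than at birth, from -0.23 to 0.07 in cooled and from -0.36 to 0.31 in heat-stressed calves, with SDs of 0.13 and 0.23.

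**Figure D5:**
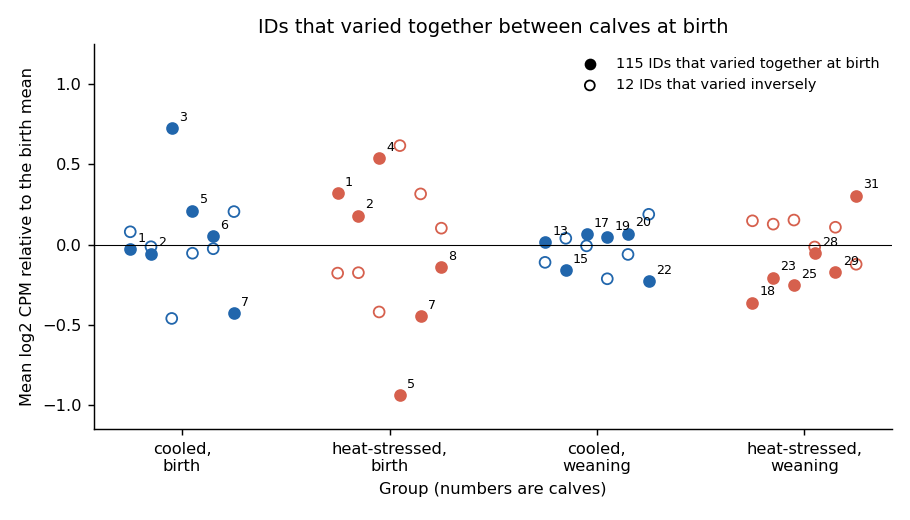
Mean log2 CPM relative to the birth mean (y axis) of the 115 IDs that varied with ENSBTAG00000027727 (filled) and of the 12 that varied inversely (open), in each calf of the 4 groups (x axis; numbers are calves, drawn beside the filled points). At birth the filled points span -0.94 to 0.73, with high and low calves in both treatments.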

How the data were processed

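Total RNA of adrenal tissue was sequenced, 1 library per calf, per the labels. The authors deposited raw read counts per Ensembl gene ID, for which the submitters' processing notes name HISAT2, HTSeq, Trim Galore 0.4.4 and FastQC 0.11.7, with the build ARS-UCD1.2. The annotation release, the strand setting and the versions of HISAT2 and HTSeq are not given in the sources used here, so reads of overlapping, antisense or near-identical genes may be split or pooled between IDs. The reference table at hand matched 0 IDs to a symbol, so the gene lists and cell type markers were not used.

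The 24 libraries entered 1 edgeR 4.0.16 quasi-likelihood model (R 4.3.3) with a mean per group, robust dispersions, TMM scaling and filterByExpr (minimum count 10, minimum total 15), which left 15693 IDs. The edgeR SE is an approximation, the absolute log2 difference divided by the square root of the quasi-likelihood F statistic. Intervals are 95%, symmetric, and built from this SE and a t quantile. Adjusted p-values are Benjamini-Hochberg over all tested IDs, with a threshold of 0.05. SDs of log2 CPM used a prior count of 2. IDs were named by fixed rules: per direction the 2 smallest p (mean of at least 1 CPM, no library with over 50% of the summed CPM), per direction the largest difference (at least 10 CPM), the ID of median SE per class, the smallest SE, and the 3 largest SDs per treatment (at least 10 CPM). DESeq2 1.42.0 and limma 3.58.1 were alternatives, with other scalings, filters, left-out libraries and a block. The model was tested on simulated data. The calves, classes and rules were chosen with earlier results of these data known. Figures used matplotlib 3.10.9.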

Additional observations from a re-analysis of the deposited data

Results flagged for a closer look

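Dixon's test for a value far from the other 5 was run on 60 groups of 6 calves and marked 8 values. For normally distributed values chance marks about 1 group in 20, or about 3 here. CPM values of single IDs entered the test without a log transform, whereas the SDs above are of log2 CPM. The rate of 1 in 20 was not checked for such values, so the 8 marks cannot be weighed against the 3. IDs named for their spread were also among the values tested, which raises the number of marks. On the principal components of the birth libraries, IUCL calf 3 scored -32.1 on the first, with the other cooled calves from -1.28 to 7.59. IUHS calf 2 scored 36.5 on the third, with the other heat-stressed calves from -4.28 to 2.23.

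The other 6 were CPM values of single IDs. ENSBTAG00000037949 measured 25.1 CPM in IUCL calf 7, with the other cooled calves from 10.8 to 14.7 CPM. ENSBTAG00000037526 measured 62.2 CPM in IUCL calf 1, with the others from 0.127 to 11.01 CPM. ENSBTAG00000009393 measured 445 CPM in IUHS calf 5, with the others from 36.3 to 180 CPM. ENSBTAG00000027727 measured 345 CPM in IUCL calf 3, with the others from 12.7 to 81.5 CPM. ENSBTAG00000037644 stood apart in both treatments, at 7.92 CPM in IUCL calf 6, with the others from 1.65 to 3.93 CPM, and at 116 CPM in IUHS calf 4, with the others from 0.869 to 4.82 CPM.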

How the results depend on the processing

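The number of IDs past the adjusted threshold at birth was 0 under all 22 alternatives, which were other scalings, filters, tools and fits, left-out libraries and the block. The smallest edgeR adjusted p in any of them was 0.0619, without IUCL calf 7. The number at an unadjusted p under 0.05 ran from 470 (without IUCL calf 3) to 832 (without IUCL calf 1) when each birth library was left out in turn. It was 1146 of 22828 IDs with no low-count filter and 387 without IUCL calf 3 and IUHS calves 4 and 5, an alternative chosen after seeing the data. Under 1 CPM, 51 IDs had a 95% interval within 2-fold. That count fell to 24 with no filter and to 25 with a filter of 1 CPM in 6 libraries, where only 558 such IDs were tested. It fell to 26 to 40 without each birth library in turn and to 10 without the 3 libraries named above, since fewer samples widen the intervals. In the other 4 abundance classes it stayed within 1.5 times under each alternative run. The ratio of the spreads passed no threshold under any alternative, and over all IDs it ran from -0.04 to 0.26.

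Title numbers 1, 2, 5 and 7 occur in both treatments, and the labels do not say that they pair calves. Deviations of calves with the same number correlated at -0.12, -0.11, 0.17 and 0.30. For numbers 5 and 7 the calf of the same number was the best match in both directions. For numbers 1 and 2 it was the best match in neither. These values do not settle whether the numbers pair calves, and the calves were treated as unpaired. With the title number as a replicate block, 529 IDs had an unadjusted p under 0.05 and 0 passed the adjusted threshold, with 3 residual degrees of freedom.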
